A study of Mus musculus with 20 samples.

Results

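The dystrophin glycoprotein complex was followed across its 8 chosen genes in plantaris muscle of old mice. The members were picked by name as rows of the count table, and all 8 had a row among the 22660 genes of the table. They are Dmd (dystrophin), Utrn (utrophin), Dag1 (dystroglycan), Sgca, Sgcb and Sgcd (α-, β- and δ-sarcoglycan), Dtna (α-dystrobrevin) and Sspn (sarcospan). RNA came from whole plantaris of 20 male C57BL/6J mice that the labels give as 2 years old, 5 separate mice in each of 4 groups. Mechanical overload (MOV) was made in both hindlimbs by cutting away part of the gastrocnemius and soleus, which share the work of the plantaris, and sham mice had the skin opened only. Within each surgery, mice received by gavage either vehicle or D + Q, a senolytic pair used to remove senescent cells, made of the tyrosine kinase inhibitor dasatinib at 5 mg/kg and the flavonoid quercetin at 50 mg/kg. The groups are named by treatment and surgery, such as vehicle sham or D + Q MOV, and muscle was taken at day 14. The treatment protocol gives the gavages at days 7 and 10, whereas in the deposited design text sham mice got their second one at day 14. MOV and sham ask how overload changes the complex in old muscle, and D + Q and vehicle ask whether the senolytic pair changes it.

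In GRCm39 coordinates of the GENCODE annotation, Dmd lies at X:81992474-84249747 (plus strand) and Utrn at 10:12257537-12745265 (minus strand). Dag1 lies at 9:108081833-108152333, Sgca at 11:94853605-94867273, Sgcb at 5:73790086-73805133 and Sgcd at 11:46787080-47879796, all on the minus strand. Dtna lies at 18:23548183-23793477 and Sspn at 6:145877367-145910950, both on the plus strand. The Dmd gene span holds the gene Tsga8, which had no row in the count table. Sgca overlaps H1f9, which had 23 to 82 counts in any mouse. Whether counting used strand is not given in the sources used here, so reads from overlapping genes could not be told apart.

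The complex links the actin cytoskeleton of the muscle fibre to the laminins around it. Dystrophin binds actin inside the fibre and the tail of dystroglycan at the membrane, dystroglycan binds laminin outside, the sarcoglycans and sarcospan sit in the membrane beside it, and dystrobrevin and the syntrophins hold signalling proteins to the inner face. Loss of dystrophin causes Duchenne muscular dystrophy, and loss of a sarcoglycan causes a limb-girdle dystrophy. Utrophin is the autosomal relative of dystrophin, which in adult muscle is concentrated at neuromuscular and myotendinous junctions and is also made by vascular and other cells.

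The 250 bases before the annotated canonical starts of Dmd and Utrn are shown because these related genes had opposite signs with overload under TMM. Dmd turned positive when libraries were scaled by total counts or by myofibre markers, as described with the results. The bases were read from the GRCm39 genome, from X:81992224-81992473 on the plus strand and from 10:12745266-12745515 on the minus strand, 5′ to 3′. Capitals mark matches on either strand to the E-box CANNTG, to the N-box TTCCGG or its complement, and to the CArG box, an A/T-rich element bound by serum response factor.
Dmd upstream: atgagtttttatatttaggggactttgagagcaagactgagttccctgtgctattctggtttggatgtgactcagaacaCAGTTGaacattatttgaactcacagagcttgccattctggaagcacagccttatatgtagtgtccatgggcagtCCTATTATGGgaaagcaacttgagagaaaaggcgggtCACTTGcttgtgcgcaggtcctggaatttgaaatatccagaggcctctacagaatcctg
Utrn upstream: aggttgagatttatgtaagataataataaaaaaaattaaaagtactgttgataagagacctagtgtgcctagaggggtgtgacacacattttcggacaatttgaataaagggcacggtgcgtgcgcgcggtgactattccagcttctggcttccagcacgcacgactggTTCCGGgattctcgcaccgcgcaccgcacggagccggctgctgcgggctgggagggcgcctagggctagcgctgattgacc
The Dmd window held 2 E-boxes and 1 CArG box and no N-box, and the Utrn window held 1 N-box and neither of the others. An E-box is the sequence bound by MyoD-family factors, and the N-box is bound by Ets-family factors at synaptic genes. Among the same windows of 21735 protein-coding genes, 64.8% held an E-box, 1.4% a CArG box and 12.4% an N-box. CG dinucleotides numbered 2 in the Dmd window and 18 in the Utrn window, against a median of 8. The windows of the other 6 members held 0 to 3 E-boxes and neither of the other motifs. These matches are letters in a window and were not tested for binding.

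The estimated counts summed to between 17887532 and 26234518 per mouse. Values are given as CPM (a gene's share of all counts in the library, on a fixed scale) after TMM scaling, which sets libraries level on the bulk of genes. TMM factors for CPM came from all 20 mice, and those for each fold change from the mice of its own fit. A fold change can therefore differ slightly from the ratio of the CPM means beside it. The muscle was checked with lists of markers chosen for 7 cell types. The summed level of 10 myofibre markers was 78477 to 86398 CPM in the 10 sham mice, 48931 to 69616 CPM in vehicle MOV and 47487 to 59919 CPM in D + Q MOV. The sum of 7 fibroblast markers was 413.2 to 597.5 CPM in vehicle sham, 493.4 to 1039 CPM in D + Q sham, 4631 to 9402 CPM in vehicle MOV and 8338 to 11306 CPM in D + Q MOV. The sum of 7 macrophage markers was 22.4 to 55.4 CPM in vehicle sham and 107.4 to 319.1 CPM in vehicle MOV. With vehicle, the edgeR test called higher with overload 3 of 4 satellite cell, 4 of 6 endothelial, 5 of 7 smooth muscle and pericyte and 3 of 6 Schwann cell markers. Of 10 myofibre markers it called 1 higher and 7 lower. Of all genes tested, 30.7% were called higher and 29.8% lower. No marker of any list was at 0 in any mouse. Vehicle MOV replicate 2 had the lowest fibroblast and macrophage sums and the highest myofibre sum of its group. Replicate 4 of that group was at the other end, with the highest fibroblast and macrophage sums and the lowest myofibre sum. In bulk muscle, fewer cells of a type and less RNA per cell cannot be told apart.

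Per kilobase of canonical transcript, the order of levels in vehicle sham muscle ran from Sgca (116 CPM per kb) through Dag1 (47.5), Sgcb (35.3), Dtna (23.8), Sspn (22.2), Dmd (9.78) and Sgcd (8.43) to Utrn (1.47 CPM per kb). The ranges of Dtna and Sspn overlapped, as did those of Dmd and Sgcd, and all other neighbours were separated in every mouse. In vehicle MOV muscle the order was the same except that Sspn (18.6 CPM per kb) stood above Dtna (17.0), again with overlapping ranges. In D + Q MOV muscle Sspn (19.1 CPM per kb) and Dtna (15.1) no longer overlapped. Per kilobase, Sgca stayed the highest and Utrn the lowest of the 8 in all 4 groups. This order depends on the transcript length used. In CPM without division by length, Dag1 was the highest in vehicle sham (276.7 CPM) and Sgcd the lowest (13.6 CPM).

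**Figure D1:**
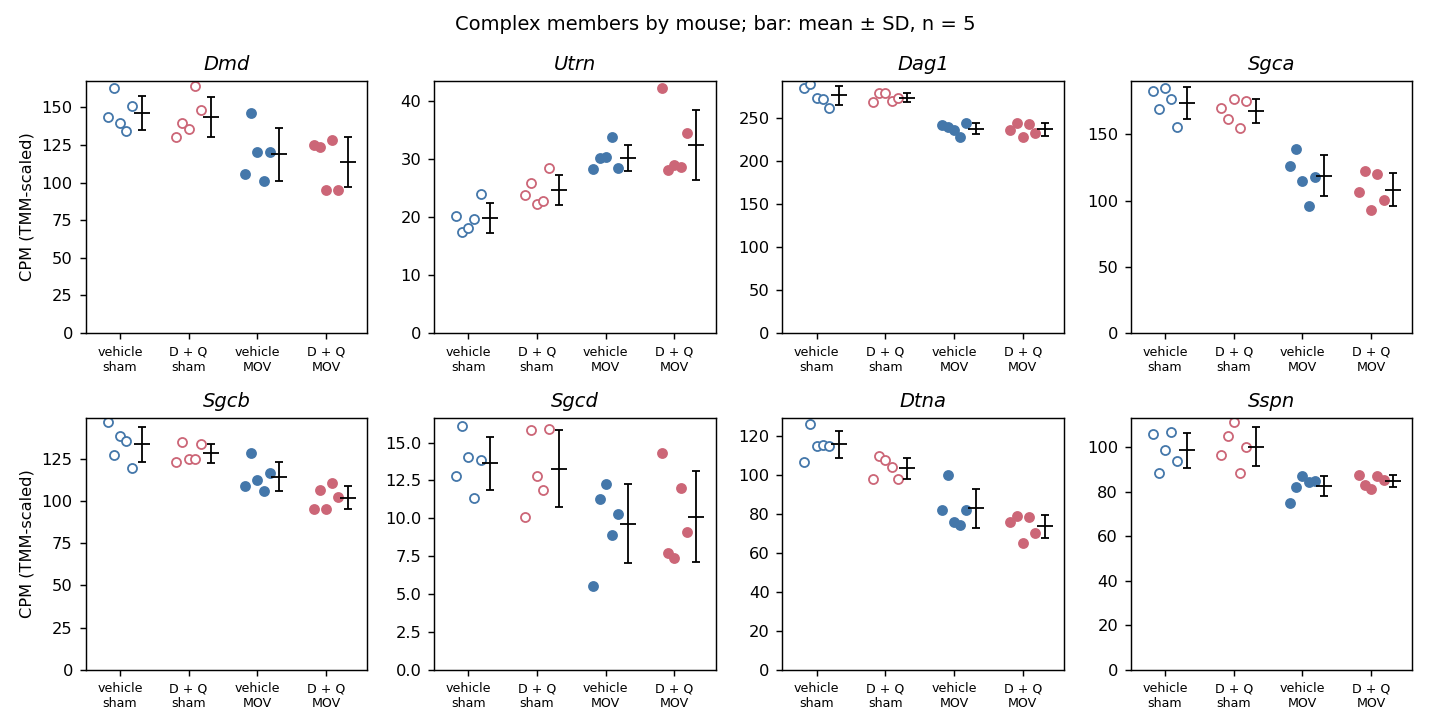
Level of each member in CPM (TMM-scaled, axis from 0) in every mouse, with open circles for sham, filled circles for MOV, blue for vehicle and red for D + Q, and a bar for the mean ± SD of 5 mice. Utrn lies higher in MOV (vehicle mean 30.2 CPM against 19.9 in sham), and the other members lie lower on this scaling, Sgca from 173.6 to 118.7 CPM.

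Overload with vehicle raised Utrn and lowered the other 7 members when libraries were scaled by TMM. Utrn rose 1.53-fold, and the falls ranged from 13.3% for Dag1 to 31% for Sgca. All 8 members passed the edgeR test at an adjusted p under 0.05, against 60.5% of all genes tested (30.7% higher and 29.8% lower), so that a passing test was common. The members' median log2 fold change was -0.27, beside -0.02 over all genes. In 5 of the 8 members the vehicle MOV and vehicle sham mice did not overlap, against 46.5% of all genes.

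Utrn, the relative that can stand in for dystrophin at the membrane, was measured at 20.2, 17.4, 18.2, 19.7 and 24.0 CPM in the vehicle sham mice. In the vehicle MOV mice it was at 28.2, 30.3, 30.4, 33.8 and 28.4 CPM. Every overloaded mouse lay above every sham mouse. The means were 19.9 ± 2.55 and 30.2 ± 2.21 CPM (SD, n = 5), a log2 fold change of 0.62 ± 0.091 (SE; edgeR adjusted p = 3.43e-05). The summed endothelial markers, from cells that also make utrophin, were at 128.9 to 183.3 CPM in the same sham mice and 212.9 to 233.7 CPM in the same overloaded mice, and their part in the rise was not tested.

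Dmd, the actin-binding protein the complex is named for, was at 143.4, 162.8, 139.6, 134.5 and 150.6 CPM in vehicle sham mice. It was at 105.9, 146.4, 120.2, 101.3 and 120.3 CPM in vehicle MOV mice. The groups overlapped through vehicle MOV replicate 2, at 146.4 CPM, and the other 4 overloaded mice lay below every sham mouse. The log2 fold change was -0.29 ± 0.093 (SE; edgeR adjusted p = 0.0148). Without replicate 2 it was -0.35 (edgeR adjusted p = 0.0016), and without vehicle MOV replicate 1 it was -0.23 and missed the threshold (edgeR adjusted p = 0.0578). With a correction for transcript length it was -0.14, and the test was also missed (edgeR adjusted p = 0.21).

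Dag1 encodes the precursor cut into α-dystroglycan, which binds laminin, and β-dystroglycan, which crosses the membrane. It was at 285.0, 290.0, 273.4, 272.6 and 262.3 CPM in vehicle sham mice and at 241.4, 239.5, 236.0, 227.7 and 244.5 CPM in vehicle MOV mice. The groups did not overlap, and the spread within each was small beside the difference. The log2 fold change was -0.21 ± 0.061 (SE; edgeR adjusted p = 0.00905).

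Among the sarcoglycans, which form a subcomplex that steadies dystroglycan at the membrane, Sgca fell the most. It was at 182.4, 168.8, 185.0, 176.6 and 155.4 CPM in vehicle sham mice and at 125.8, 138.7, 114.6, 96.2 and 118.1 CPM in vehicle MOV mice, with no overlap. Its log2 fold change was -0.54 ± 0.089 (SE; edgeR adjusted p = 9.84e-05). Sgcb had a mean of 133.6 ± 10.5 CPM in vehicle sham and 114.5 ± 8.87 CPM in vehicle MOV (SD, n = 5), and the groups overlapped (log2 fold change -0.21, edgeR adjusted p = 0.0233). Sgcd, the lowest of the 3 per kilobase, was at 12.8, 16.1, 14.1, 11.4 and 13.8 CPM in vehicle sham and at 5.5, 11.3, 12.2, 8.9 and 10.3 CPM in vehicle MOV. Its groups also overlapped, and replicate 1 of vehicle MOV, at 5.5 CPM, was the lowest of its group. The log2 fold change of Sgcd was -0.49 ± 0.18 (SE; edgeR adjusted p = 0.0264), or -0.32 without that mouse. The call of Sgcb was lost without vehicle MOV replicate 1, 3 or 4 or vehicle sham replicate 1 or 3 (log2 fold change -0.17 to -0.20), and that of Sgcd without vehicle MOV replicate 4 (-0.45) or vehicle sham replicate 2 (-0.42) or 3 (-0.48).

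Dtna, the scaffold that binds dystrophin and the syntrophins, was at 106.8 to 126.4 CPM in vehicle sham (median 115.0) and at 74.3 to 99.9 CPM in vehicle MOV (median 81.9), with no overlap and a log2 fold change of -0.47 ± 0.081 (SE; edgeR adjusted p = 0.000148). Sspn, a small membrane protein bound to the sarcoglycans, was at 88.3 to 106.7 CPM in vehicle sham and 75.1 to 87.1 CPM in vehicle MOV. Its groups were separated by a narrow margin, and the log2 fold change was -0.24 ± 0.070 (SE; edgeR adjusted p = 0.00768).

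Overload with D + Q gave the same signs for all 8 members in a separate set of 10 mice. Utrn rose 1.37-fold and 6 members fell, while Sgcd missed the test. That makes 7 of 8 members called, against 65.3% of all genes tested (34.4% higher and 30.9% lower), and 6 of 8 with no overlap, against 53.2%. The members' median log2 fold change was -0.29, beside 0.02 over all genes.

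Utrn was at 23.8, 25.8, 22.2, 22.8 and 28.6 CPM in D + Q sham mice and at 42.2, 28.1, 29.0, 28.6 and 34.5 CPM in D + Q MOV mice. The groups touched, since the highest sham mouse (28.6 CPM) lay above the lowest overloaded mouse (28.1 CPM), and replicate 1 of D + Q MOV was the highest of all 20 mice. The log2 fold change was 0.45 ± 0.11 (SE; edgeR adjusted p = 0.00268). Dmd was at 130.2, 139.7, 135.4, 164.0 and 148.2 CPM in D + Q sham and at 125.2, 123.6, 95.1, 128.2 and 95.2 CPM in D + Q MOV, with every overloaded mouse below every sham mouse. Its log2 fold change was -0.29 ± 0.096 (SE; edgeR adjusted p = 0.0158).

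Sgca fell from 167.5 ± 9.16 to 108.3 ± 12.6 CPM (SD, n = 5), the largest fall among the members here too. Its fitted log2 fold change was -0.58 (SE 0.074, edgeR adjusted p = 1.86e-06). Dtna went from 103.5 ± 5.48 to 73.7 ± 5.87 CPM (log2 fold change -0.44, edgeR adjusted p = 7.83e-06). Sgcb went from 128.4 ± 5.51 to 102.0 ± 6.76 CPM (log2 fold change -0.28, edgeR adjusted p = 0.000321). Dag1 and Sspn had log2 fold changes of -0.16 and -0.19 (edgeR adjusted p = 0.00912 and 0.00991). Sgcd had a log2 fold change of -0.34 ± 0.19 (SE; edgeR adjusted p = 0.141) with overlapping groups, and it was called only when D + Q MOV replicate 1, its highest overloaded mouse at 14.3 CPM, was left out (-0.50, edgeR adjusted p = 0.016).

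**Figure D2:**
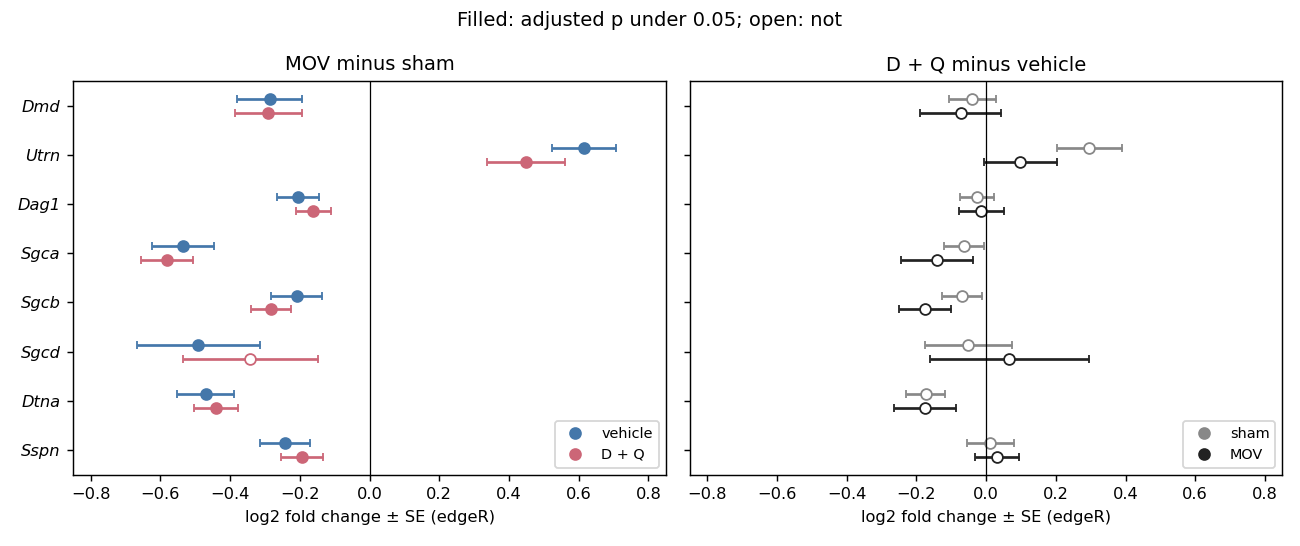
Log2 fold change ± SE from edgeR for each member, MOV minus sham on the left (blue vehicle, red D + Q) and D + Q minus vehicle on the right (grey sham, black MOV), with filled points at an adjusted p under 0.05. Overload points are filled except for Sgcd with D + Q, with Utrn alone on the right of 0, and no D + Q point is filled.

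The direction of the falls depended on how libraries were scaled, and the rise of Utrn did not. TMM left the median gene near 0 (log2 fold change -0.02 with vehicle), whereas scaling by total counts moved the median of all genes to 0.36. Scaling by the myofibre markers used their median within each library, not their sum. It moved the median of all genes to 0.57 and left the median of the markers themselves at -0.02. With vehicle, 4482 genes were called higher and 4349 lower under TMM, 7683 and 1453 under total counts, and 8688 and 499 under myofibre markers. Under total counts the log2 fold changes of Dmd (0.08), Dag1 (0.17), Sgcb (0.17) and Sspn (0.14) turned positive, and under myofibre markers all 7 were positive, from 0.03 for Sgca to 0.38 for Dag1. Utrn was at 0.62 under TMM, 1.00 under total counts and 1.21 under myofibre markers with vehicle, and at 0.45, 0.81 and 1.05 with D + Q, past the edgeR threshold each time. Relative to the median gene with vehicle, the 7 members were lower under each of these scalings, Dmd by 0.27 to 0.30 and Sgca by 0.52 to 0.54 on the log2 scale. Relative to the median of the myofibre markers under TMM (-0.57), Sgca (by 0.03), Sgcd (0.08) and Dtna (0.10) lay close to the markers, Dmd (0.28), Sspn (0.33), Sgcb (0.36) and Dag1 (0.37) above them, and Utrn 1.19 above. The summed myofibre markers were lower in every overloaded mouse than in every sham mouse, and their part in these falls was not tested.

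**Figure D3:**
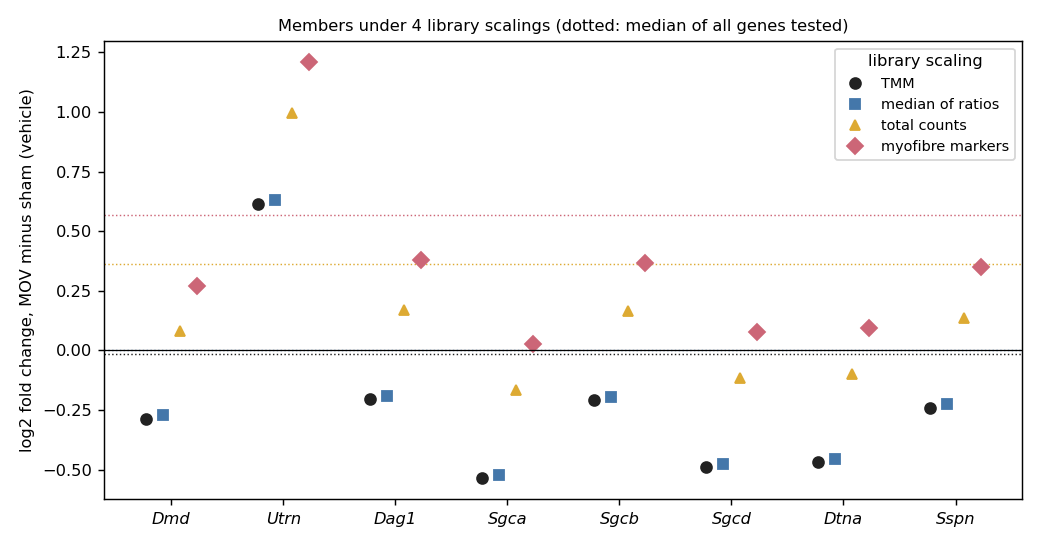
Log2 fold change of each member, vehicle MOV minus vehicle sham, under 4 library scalings (symbols), with dotted lines at the median of all genes under each. Utrn lies above every dotted line, from 0.62 to 1.21, while each other member lies below the line of its own scaling.

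The ratio of Utrn to Dmd within a mouse does not depend on library scaling. Per kilobase of transcript, Utrn was at 15.6, 11.8, 14.4, 16.2 and 17.6% of Dmd in vehicle sham mice and at 29.5, 22.8, 27.9, 36.8 and 26.1% in vehicle MOV mice. With D + Q it was at 20.2, 20.4, 18.1, 15.4 and 21.3% in sham mice and at 37.2, 25.1, 33.6, 24.6 and 40.0% in MOV mice. Every overloaded mouse lay above every sham mouse, whichever the treatment. The ratio was 1.89-fold higher with overload in vehicle mice (log2 difference 0.92 ± 0.15, SE) and 1.66-fold higher in D + Q mice (0.73 ± 0.17, SE). Each gave a two-sided exact permutation p of 0.00794, the smallest that 5 against 5 mice allow. The adjusted p was 0.111 over the 28 ratios and comparisons tested, so neither passed the correction. At that floor these ratios could not have passed by themselves, however far apart the groups lay.

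The other 6 members were also set against Dmd. The Sgca to Dmd ratio differed with overload by -0.29 on the log2 scale with D + Q (exact permutation p = 0.0317, adjusted p = 0.222) and by -0.25 with vehicle (exact permutation p = 0.0556, adjusted p = 0.259). Dtna to Dmd differed by -0.18 with vehicle (exact permutation p = 0.0238, adjusted p = 0.222) and by -0.15 with D + Q (exact permutation p = 0.127, adjusted p = 0.508). The ratios of Dag1, Sgcb, Sgcd and Sspn to Dmd differed with overload by -0.23 to 0.14, with exact permutation p of 0.19 or more. None of these passed the correction.

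**Figure D4:**
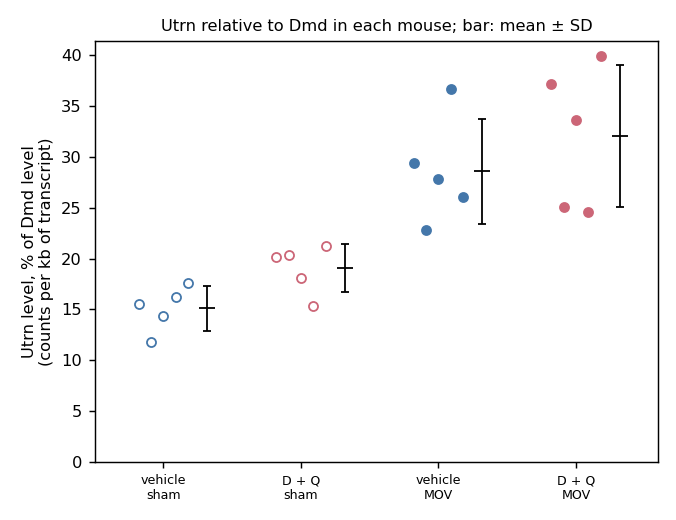
Level of Utrn as a percent of the level of Dmd, both per kilobase of transcript, in each mouse (open sham, filled MOV, blue vehicle, red D + Q), with the mean ± SD of 5 mice. The sham mice lie between 11.8 and 21.3%, and the MOV mice between 22.8 and 40.0%.

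D + Q changed no member at an adjusted p under 0.05 in either surgery. In sham muscle edgeR and DESeq2 called 0 of 8 members, against 0.215% of all genes called by edgeR, and 2 members had an unadjusted edgeR p under 0.05, as did 1420 of 13926 genes (10.2%). DESeq2 called 97 genes higher and 27 lower, where 22314 genes had an unadjusted p, which need not all have entered its adjustment. In every member the D + Q and vehicle mice overlapped, where 2.12% of all genes did not. Utrn averaged 24.6 ± 2.59 CPM in the D + Q mice and 19.9 ± 2.55 CPM in the vehicle mice (SD, n = 5; log2 fold change 0.30 ± 0.093, SE; edgeR adjusted p = 0.258). The groups overlapped only through vehicle sham replicate 5, at 24.0 CPM. Dtna averaged 103.5 CPM in the D + Q mice and 115.8 CPM in the vehicle mice (log2 fold change -0.17 ± 0.056, SE; edgeR adjusted p = 0.275). The Utrn to Dmd ratio was 1.27-fold higher with D + Q in sham mice, with an exact permutation p of 0.0397 and an adjusted p of 0.222.

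In overloaded muscle edgeR and DESeq2 again called 0 of 8 members, where edgeR called 0.0% of all genes. DESeq2 called 6 genes higher and 7 lower there, where 22629 genes had an unadjusted p. The groups overlapped in every member, where 1.5% of all genes did not overlap. An unadjusted edgeR p under 0.05 was found for 1340 of 15238 genes (8.79%) and for 1 member, Sgcb, at 102.0 ± 6.76 CPM in D + Q mice and 114.5 ± 8.87 CPM in vehicle mice (log2 fold change -0.17 ± 0.075, SE; edgeR adjusted p = 0.547). Utrn differed by 0.10 ± 0.11 and Dmd by -0.07 ± 0.12 (log2, SE), each smaller in size than its SE (edgeR adjusted p = 0.784 and 0.86). The interaction, which asks whether the overload response differed between D + Q and vehicle, called 0 of 8 members by edgeR and 0.0127% of all genes, with no member at an unadjusted edgeR p under 0.05, beside 897 of 15700 genes (5.71%). Its estimates ran from -0.20 ± 0.15 for Utrn to 0.11 ± 0.28 for Sgcd (log2, SE).

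Of 15 other subunits and partners of the complex 12 were tested, with 4 called higher and 5 lower by overload with vehicle and 3 higher and 6 lower with D + Q. Genes in general were also called in both directions, 60.5% of them with vehicle (30.7% higher, 29.8% lower) and 65.3% with D + Q (34.4% higher, 30.9% lower). Aqp4, the water channel held at the membrane through α-syntrophin, was at 29.0 to 42.9 CPM in vehicle sham and 6.43 to 9.44 CPM in vehicle MOV (log2 fold change -2.21, edgeR adjusted p = 2.04e-08). Nos1, neuronal nitric oxide synthase, which docks on the complex, was at 145.3 to 208.7 CPM in vehicle sham and 53.0 to 69.4 CPM in vehicle MOV (log2 fold change -1.40, edgeR adjusted p = 6.38e-08). Both sets of mice were far apart, and with D + Q the log2 fold changes were -1.91 and -1.30. Synm, an intermediate filament protein that binds dystrobrevin, fell as well (-0.89 with vehicle, -0.80 with D + Q). Aqp4 and Nos1 stayed lower and past the edgeR threshold under total counts and myofibre markers too.

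The rises on that list were led by Sntb2, β2-syntrophin, which went from 7.59 ± 0.411 to 23.3 ± 6.72 CPM (SD, n = 5; log2 fold change 1.63, edgeR adjusted p = 4.46e-06) with vehicle and by 1.78 on the log2 scale with D + Q. Sgce, ε-sarcoglycan, which many tissues make in place of Sgca, rose from 5.34 ± 0.835 to 10.3 ± 2.52 CPM (log2 fold change 0.96, edgeR adjusted p = 0.000154). Cav3, the caveolin of muscle membranes, rose by 0.41 with vehicle and 0.31 with D + Q on the log2 scale.

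The enzymes that build the laminin-binding sugar of α-dystroglycan had, of 17 tested with vehicle, 4 called higher and 7 lower, where 60.5% of all genes were called (30.7% higher and 29.8% lower), and a median log2 fold change of -0.20. Gmppb, which makes GDP-mannose, rose by 0.96 on the log2 scale (edgeR adjusted p = 0.000178), and Dpm3 (0.72) and Dpm2 (0.49), subunits of dolichol phosphate mannose synthase, rose with it. B3galnt2 (-0.62) and Pomgnt2 (-0.56), which extend the sugar chain, fell under TMM, and under myofibre markers their vehicle values were -0.04 and 0.03. With D + Q 3 of the 17 were called higher and 6 lower, beside 65.3% of all genes (34.4% higher and 30.9% lower).

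The ligands outside the fibre mostly rose. With vehicle 8 of 10 tested were called higher and 2 lower, beside 30.7% and 29.8% of all genes, and their median log2 fold change was 0.93. With D + Q the counts were also 8 and 2, beside 34.4% and 30.9%. Bgn, biglycan, a proteoglycan that binds dystroglycan and the sarcoglycans, went from 37.4 ± 4.58 to 520.0 ± 80.8 CPM (SD, n = 5; log2 fold change 3.81, edgeR adjusted p = 8.7e-11). Lamb1 (2.58) and Lama4 (1.85), laminin chains, also rose, and Lama2, the laminin chain of the fibre's own basement membrane, went from 33.2 ± 6.18 to 59.9 ± 7.19 CPM (log2 fold change 0.87, named after its values were seen). Egflam, pikachurin, fell by 1.45 on the log2 scale, and Lama5 fell by 0.37 under TMM but was at 0.20 under myofibre markers. All 7 fibroblast and all 7 macrophage markers were called higher with overload in both treatments, and their part in the rise of the ligands was not tested.

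Genes of the costamere, the rib-like site where the complex sits, and of membrane repair had 11 of 19 called higher and 4 lower with vehicle, where 30.7% and 29.8% of all genes were, and 11 and 6 with D + Q, where 34.4% and 30.9% were. Anxa2 (2.67), Anxa5 (2.35) and Myof (2.37), annexins and a ferlin of membrane repair that other cells also make, rose the most with vehicle on the log2 scale. Cavin4 (-0.61), Ank2 (-0.46) and Plec (-0.50) fell under TMM. Plec lost its call without vehicle sham replicate 1 or 2 or vehicle MOV replicate 1 or 3 (-0.43 to -0.50), and under myofibre markers Plec (0.04) and Ank2 (0.12) were positive and Cavin4 was at -0.03.

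At the neuromuscular junction, where utrophin is concentrated, 6 of 11 genes were called higher and 3 lower with vehicle, where 60.5% of all genes were called (30.7% and 29.8%), and 5 and 3 with D + Q, where 65.3% were (34.4% and 30.9%). Chrng, the fetal γ-subunit of the acetylcholine receptor, had 1 to 12 counts in the vehicle sham mice and 80 to 180 counts in the vehicle MOV mice, without overlap (edgeR adjusted p = 1.65e-06). Chrnd and Chrna1, the δ- and α-subunits, rose by 2.27 and 1.27 on the log2 scale. Musk, the receptor kinase that gathers these receptors, fell by 0.87, Rapsn, their anchor, fell by 0.58, and Lrp4, the agrin receptor, fell by 0.29 on the log2 scale under TMM with vehicle. Under total counts Musk (-0.50) and Rapsn (-0.21) stayed past the edgeR threshold and Lrp4 was at 0.09 (edgeR adjusted p = 0.47). Under myofibre markers Musk was at -0.33 (edgeR adjusted p = 0.0639), Rapsn at -0.01 (edgeR adjusted p = 0.966) and Lrp4 at 0.28, none of them called. Lrp4 lost its call without vehicle sham replicate 1 or vehicle MOV replicate 4 or 5 (-0.22 to -0.25). In overload with D + Q it lost it without D + Q MOV replicate 4 (-0.20).

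**Figure D5:**
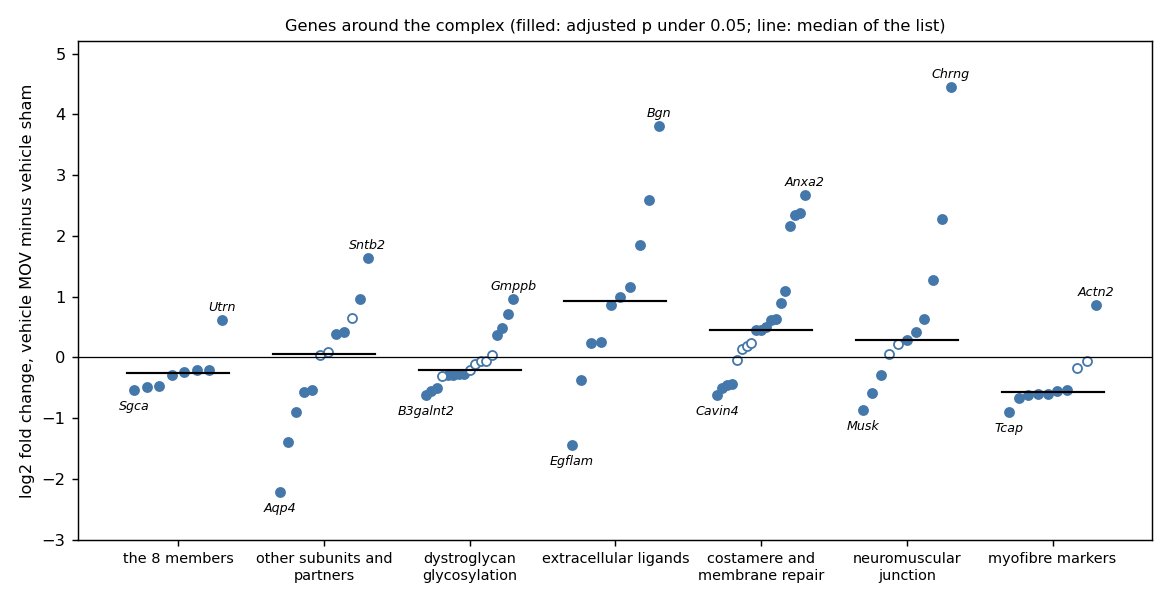
Log2 fold change, vehicle MOV minus vehicle sham, of each tested gene in 7 lists (columns), filled at an adjusted p under 0.05, with a line at the list's median and the lowest and highest gene named. Utrn (0.62) stands apart from the 7 other members, and the ligands (median 0.93) lie mostly above 0 while the myofibre markers (median -0.57) lie mostly below.

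Between D + Q and vehicle, 3 genes of the wider lists were called, all of them in sham muscle, where 0.215% of all genes were called. Lamb1 was at 19.4 to 25.3 CPM in D + Q mice and 12.3 to 17.3 CPM in vehicle mice (log2 fold change 0.61 ± 0.097, SE; edgeR adjusted p = 0.0177). Lama4 was at 18.3 to 25.8 CPM in D + Q mice and 12.1 to 17.1 CPM in vehicle mice (0.53 ± 0.10, SE; edgeR adjusted p = 0.0417). Cavin1, a coat protein of caveolae, was at 157.4 to 173.3 CPM in D + Q mice and 133.5 to 144.9 CPM in vehicle mice (0.24 ± 0.047, SE; edgeR adjusted p = 0.0446). None of the 3 overlapped between groups, as was so for 2.12% of all genes, but they were named because they were called. Their calls were fragile. Lamb1 was called in 6, Lama4 in 3 and Cavin1 in 0 of the 10 fits that left out a mouse, with edgeR adjusted p up to 0.0743, 0.136 and 0.173, while their log2 fold changes stayed at 0.56 to 0.69, 0.46 to 0.59 and 0.22 to 0.25. Lamb1 lost its call without vehicle sham replicate 2 or 3 or D + Q sham replicate 3 or 5, Lama4 kept it without vehicle sham replicate 5 or D + Q sham replicate 1 or 4, and Cavin1 lost it without any one of the mice. With all 20 mice in one fit the 3 genes missed the threshold (edgeR adjusted p = 0.189, 0.226 and 0.166). The summed fibroblast markers were also higher in D + Q sham (median 681.8 CPM) than in vehicle sham (463.5 CPM), and their part was not tested. No list gene was called between D + Q and vehicle in overloaded muscle or in the interaction.

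Genes whose levels ran most alike with Dmd and Utrn were ranked by Pearson correlation of log2 CPM (pseudocount 0.1) among 15699 genes over the 20 mice, which share group differences and library scaling. For Dmd these were Klhl7 and Neb (both 0.91), Spag9, Eif3a and Kif1b (all 0.90). After group means were subtracted they included Spag9 (0.90), Ubr3 (0.86), Huwe1 (0.85) and Klhl7 (0.85). For Utrn they were Galnt18 (0.93), Gnb4, Cav1, Ehd2 and Cpt1a (all 0.92), and after subtraction Cr1l (0.82), Lax1 (0.80), Galnt18 (0.80), Sptan1 (0.77) and Clock (0.76). Within groups, Dmd ran with Dtna (0.73) and Sgca with Sgcb (0.73), while Dmd and Utrn did not run together (-0.02). These values describe the 20 mice and were not tested.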

How the data were processed

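RNA-seq of plantaris from 20 mice was deposited as estimated counts, 1 column per mouse. Per the labels the authors used STAR 2.7.8a, GRCm39 and Partek, and the deposited expected counts are not normalized. Of the values, 29.8% were not whole and were rounded. Every row sums to at least 10.0. Depth was 17887532 to 26234518 counts per mouse, which limits low genes. Replicates are separate mice, and within groups the observed variance was at least 6.54 times the counting variance, so no library repeats another.

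Groups came from sample titles. Each comparison was fitted on its own 10 mice (the interaction on all 20) with edgeR 4.0.16 in R 4.3.3 (quasi-likelihood, robust, TMM), for genes reaching 10 counts in 5 or more mice, with Benjamini-Hochberg adjustment over all genes tested and a threshold of 0.05. Members were fitted within the whole table. Ratios to Dmd were tested by exact permutation, two-sided, over the 252 divisions of 10 mice and adjusted over 28 tests. MOV against sham with vehicle and with D + Q use different mice.

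The members and the 13 gene lists were chosen with earlier results of these data known. Named genes were all members, the 3 largest rises and falls with vehicle among called genes of each wider list, list genes called between D + Q and vehicle, and the 5 genes most like Dmd and Utrn by each measure. Some genes that this rule names are not reported here. Alternatives were DESeq2 1.42.0, RLE factors, total counts only, myofibre marker scaling, no count minimum, all 20 mice in one fit, the replicate number as a block, transcript length correction, counts not rounded for the ratios, and each mouse left out. Fits were tested on simulated data for vehicle MOV against vehicle sham. Of genes given a log2 change of 1, 66% were called, and of those given 0.5, 40%. Among 14211 genes given no change, 1 was called. Smaller changes were not simulated. Lengths and positions (96.0% of rows) came from GENCODE for GRCm39. Sgcz and Sntg1, on the list of other subunits, were not analysed here.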

Additional observations from a re-analysis of the deposited data

Results flagged for a closer look

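Among 60 groups of 5 mice screened for a single far mouse (member levels and ratios to Dmd), 1 was picked out, where chance alone would pick about 1 in 20. In vehicle MOV mice the ratio of Sgca to Dmd per kilobase was 1186% in replicate 1 and 946.0 to 980.1% in the other 4 mice, a gap of 0.858 of the whole range. That mouse had 105.9 CPM of Dmd and 125.8 CPM of Sgca.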

How the results depend on the processing

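With DESeq2, RLE factors, no count minimum and all 20 mice in one fit, every member kept its direction and its call in both overload comparisons. The count of members called with vehicle was 8, and 3 under total counts and 5 under myofibre markers. Of all 14601 genes tested, 60.5% were called under TMM, 7683 higher and 1453 lower under total counts, and 8688 and 499 under myofibre markers. With D + Q the count of members was 7, and 4 under total counts. There 65.3% of all 14913 genes tested were called under TMM, and 8392 higher and 1654 lower under total counts. Leaving out single mice gave 6 to 8 members called with vehicle and 7 to 8 with D + Q. Of the 14088 to 14522 genes of those vehicle fits, 3987 to 4317 were called higher and 3907 to 4211 lower. Of the 14360 to 14835 genes of the D + Q fits, 4541 to 5006 were called higher and 4304 to 4484 lower. Utrn kept its direction and call in both overload comparisons under every alternative. The calls under total counts and myofibre markers include members whose sign had turned. With vehicle, Sgca (-0.166), Sgcd (-0.116) and Dtna (-0.100) stayed lower under total counts but lost their calls, so no fall was called there. With D + Q, 1 of Sgca (-0.220) and Dtna (-0.080) lost its call under total counts. Under myofibre markers no member stayed lower in either treatment. Under total counts the reversed log2 fold changes were Dmd 0.083, Dag1 0.171, Sgcb 0.166 and Sspn 0.136 with vehicle, and Dmd 0.070, Dag1 0.203, Sgcb 0.080, Sgcd 0.017 and Sspn 0.171 with D + Q. Under myofibre markers they were Dmd 0.271, Dag1 0.3775, Sgca 0.0251, Sgcb 0.366, Sgcd 0.078, Dtna 0.094 and Sspn 0.348 with vehicle, and Dmd 0.303, Dag1 0.441, Sgca 0.011, Sgcb 0.320, Sgcd 0.241, Dtna 0.154 and Sspn 0.407 with D + Q. These scalings move all genes together, as the medians show.

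Between D + Q and vehicle no member was called by any alternative, and signs of values near 0 turned. In sham these were Dag1 (0.0102, total counts), and with single mice left out Dmd (-0.0889 to 0.0101), Sgcd (-0.1239 to 0.0292) and Sspn (-0.0271 to 0.0560). In MOV they were Dag1 (0.0418, total counts, and 0.0836, myofibre markers), Dmd (0.0262, myofibre markers), and with single mice left out Dmd (-0.1297 to 0.0107), Utrn (-0.0137 to 0.1458), Dag1 (-0.0336 to 0.0024), Sgcd (-0.0934 to 0.1698) and Sspn (-0.0022 to 0.0515). In the interaction they were Dtna (0.0058 with DESeq2, 0.0054 with RLE factors, 0.0202 with total counts, 0.0698 with myofibre markers), Dmd (0.0419, myofibre markers), Dag1 (-0.0128, length correction), and with single mice left out Dmd (-0.0897 to 0.0296), Dag1 (-0.0091 to 0.0275), Sgcd (-0.0481 to 0.2156), Dtna (-0.0423 to 0.0515) and Sspn (-0.0270 to 0.0551). The cause was not tested.

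The replicate numbers of the titles did not pair the mice, since same-numbered mice correlated by -0.151 to 0.186 after group means were removed and at most 1 of 5 pairs passed 0.1. The deposited column names number the mice differently. For D + Q against vehicle both numberings pair the same mice, and for MOV against sham the column names share 4 numbers, whose pairs correlated by 0.041 to 0.082 with vehicle and -0.018 to 0.015 with D + Q. With the number as a block, 8 and 7 members were called in the overload comparisons and 0 in the others. The block fits called 4419 genes higher and 4275 lower of 14601 with vehicle, and 4997 and 4414 of 14913 with D + Q. The Utrn to Dmd difference ranged over 0.82 to 0.99 (vehicle), 0.65 to 0.82 (D + Q), 0.25 to 0.41 (D + Q in sham) and 0.07 to 0.25 (D + Q in MOV) with single mice left out. With 5 mice per group the exact test cannot go below 0.00794, or 0.0159 with 4 against 5. Between D + Q and vehicle in sham, the counts of ligand and costamere genes called, 2 and 1, were 0 and 0 with all 20 mice in one fit, 1 and 0 with the block, length correction or myofibre markers, and 0 to 2 and 0 with single mice left out. Of all 13926 genes in the main fit, 26 were called higher and 4 lower. In one fit of 20 mice these were 16 and 3 of 15700. They were 17 and 2 with the block, and 15 and 3 with length correction or myofibre markers. Single mice left out gave 2 to 59 higher and 0 to 15 lower.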

Other observations

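3 genes of the wider lists, picked out after their values were seen, were far higher in a single overloaded mouse. In vehicle MOV replicate 5, Sntb1, β1-syntrophin, was at 57.5 CPM and the other 4 mice of the group at 6.65 to 15.6 CPM. Dysf, dysferlin, was at 43.6 CPM there and at 12.9 to 21.2 CPM in the others, and Flnc, filamin C of the Z-disc and membrane, at 5957 CPM against 1675 to 3256 CPM. Without that mouse the log2 fold change of overload with vehicle went from 0.66 to -0.30 for Sntb1 (edgeR adjusted p = 0.394 and 0.286) and from 0.24 to -0.15 for Dysf (edgeR adjusted p = 0.548 and 0.421). For Flnc it went from 1.10 to 0.73 and stayed past the threshold (edgeR adjusted p = 0.0144 and 0.00388). The 8 members kept their directions without it, and Utrn was at 0.66 there. In the D + Q MOV mice Sntb1 was at 7.57 to 10.2 CPM and Dysf at 12.9 to 16.0 CPM, with no mouse apart.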
